A study of Rattus norvegicus with 6 samples.

Results

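The genes of the proteasome were examined in the renal cortex of 6 male Sprague-Dawley (Crl:CD(SD)) rats, purchased at 5 weeks of age. Of these, 3 received the vehicle corn oil and 3 received tricresyl phosphate, a flame-retardant plasticiser of the organophosphate class, at 200 mg/kg/day, each for 4 weeks. Total RNA of each animal was labelled with the dye Cy3 and hybridised to its own Agilent array, so n counts animals. Members were chosen by name: a gene entered if the accession of a non-control probe mapped to a symbol starting with Psma, Psmb, Psmc, Psmd or Psme and a digit, with Psmb8 and Psmb9 left out. This gave 41 genes with 72 probes, out of 15645 named genes and 61537 probes on the array. Among the 41 there were 16 core particle genes, 16 genes of the regulatory cap, 4 activators, 3 assembly chaperones of the cap, and 2 genes that carry a matching name but encode no subunit. No probe matched Psmb11 or Psmd11 through its accession, and they were not analysed here.

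The proteasome degrades proteins that carry a chain of ubiquitin. Its core particle is a barrel of stacked rings, in which the alpha subunits (Psma genes) gate the entrance and 3 of the beta subunits (Psmb genes) cut the chain. The cap docks on the barrel: its base holds a ring of ATPases (Psmc genes) that unfold the substrate, and its lid (most Psmd genes) removes the ubiquitin chain, which receptors in the base help to recognise. The activators (Psme genes) open the barrel without the ATPases. Transcription of the subunits is known to be coordinated, and the factor NRF1, encoded by Nfe2l1, raises it when proteasome activity falls. Interferons raise the inducible catalytic subunits Psmb8, Psmb9 and Psmb10 and the activators Psme1 and Psme2.

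Values are log2 processed signals relative to the 75th percentile of the same array, so that 0 is that percentile. The lowest median signal of an array was 102.6 and the highest 133.2, with median backgrounds of 33.0 to 41.0, and pairs of arrays correlated at 0.987 to 0.991. Unless another normalization is named, every value and count of lower genes refers to this 75th percentile scaling. All 9 proximal tubule markers passed the filter on dim probes, with a mean level from 6.86 to 7.0 with corn oil and from 6.77 to 6.92 with tricresyl phosphate, as did the podocyte gene Nphs1 and the collecting duct gene Aqp2; the distal tubule gene Pvalb did not pass. Corn oil replicate 1 was the only array on its slide, and the other 5 arrays shared a slide and a scan day. Corn oil replicate 1 was scanned on a different day. Being bulk tissue, these samples cannot tell fewer cells of a type from less RNA per cell.

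Proteasome transcripts varied little within both groups, and no member passed the test. Of the 36 core, cap and activator genes, 34 had a lower mean with tricresyl phosphate, and the median of their log2 differences was −0.071. The 31637 genes tested include array targets that have no gene symbol. Over all of them 59.2% were lower, with a median of −0.038. In the brightest of 5 classes of signal level, which held 31 of the 36 members, 76% were lower, with a median of −0.072. The direction depended on the scaling: 19 of 36 members were lower after quantile normalization (median −0.0095), 21 after cyclic loess (median −0.014), and 18 after normexp background correction with quantile normalization (median −0.0022). Adjusted limma p-values under 0.05 numbered 0 among the members and 0 among all genes, 0% of those tested. At an unadjusted limma p under 0.05 there were 0 members and 1737 genes, or 5.49%, made up of 3.86% lower and 1.63% higher. The median SD within a group was 0.066 with corn oil and 0.054 with tricresyl phosphate over the members, against 0.105 and 0.095 over all genes of the brightest class. The 95% interval of the difference lay within 1.5-fold in either direction for 34 of the 36 members, with Psma2 and Psma8 the exceptions. The same held for 20700 of all 31637 genes and for 5657 of the 6328 of the brightest class.

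**Figure D1:**
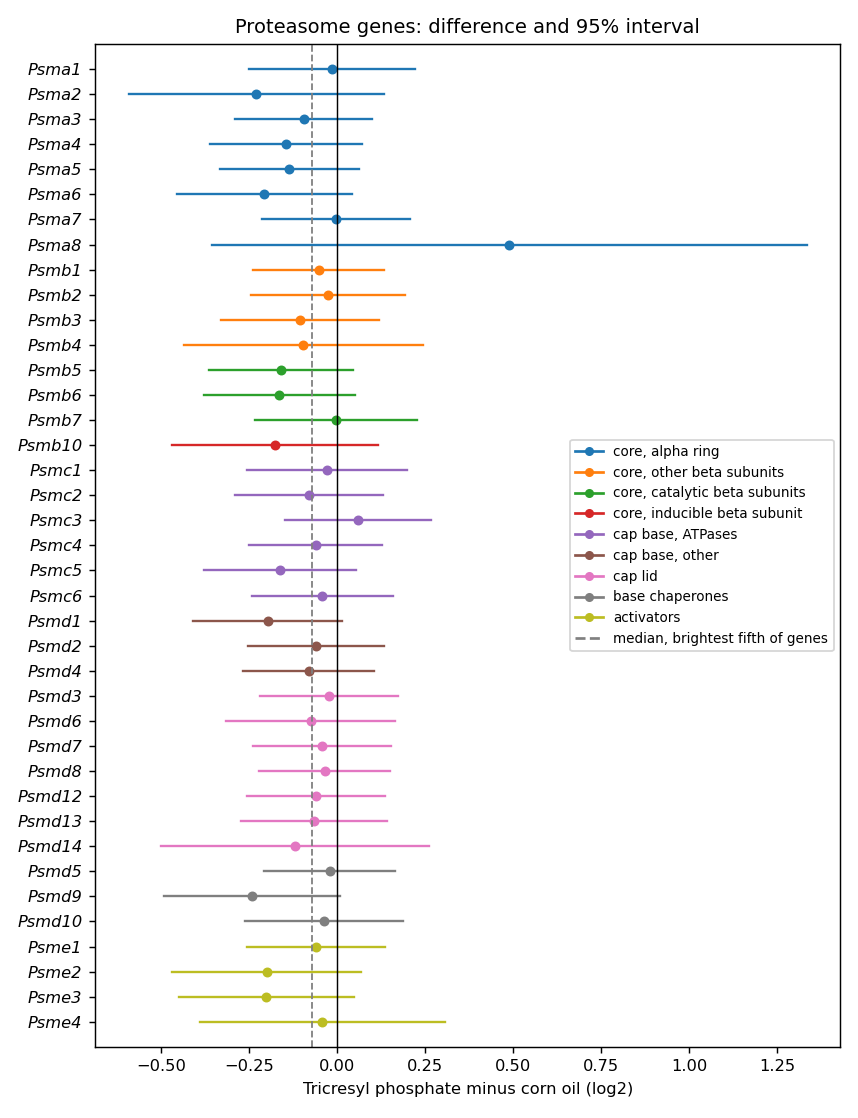
Difference between the group means (tricresyl phosphate minus corn oil, log2) of 39 proteasome genes, with 3 animals a group; points are limma estimates, horizontal lines are 95% intervals, and colours mark the role of the gene. The points other than Psma8 lie between −0.24 and 0.06, every interval includes 0, and the dashed line marks the median of the brightest class of genes, −0.072.

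The alpha ring, the gate of the core particle, had 8 genes on the array, 7 of them lower with tricresyl phosphate at the 75th percentile scaling. Psma6 was at 5.49, 5.38 and 5.33 with corn oil and at 5.32, 5.07 and 5.19 with tricresyl phosphate. Its groups did not overlap, although corn oil replicate 3 and tricresyl phosphate replicate 1 were nearly level. The difference was −0.21 ± 0.10 (SE), 0.866-fold, with an adjusted limma p of 0.811. Psma5 was at 3.60, 3.51 and 3.48 with corn oil and at 3.39, 3.42 and 3.36 with tricresyl phosphate, a difference of −0.14 ± 0.081 (SE), again with no overlap and an adjusted limma p of 0.811. Psma3 and Psma4 also had groups that did not overlap, with differences of −0.095 and −0.15, where 7.95% of all genes were lower without overlap. In Psma4 the gap was narrow, from 5.37 with corn oil to 5.36 with tricresyl phosphate. Their second probes differed by 0.013 and −0.016. The groups of Psma3 overlapped after quantile, cyclic loess and normexp normalization, those of Psma4 after quantile and normexp, and those of Psma5 after normexp. Psma1 and Psma7 differed by −0.015 and −0.0036. Psma2 differed by −0.23, the most negative value among the core genes, where 1 treated animal stood alone at 2.71 while the remaining 5 values lay from 3.14 to 3.33. Psma8, the form of this ring known from the testis, was dim: 3 of its 4 probes did not pass the filter, and the remaining one was well above background in 2 animals of each group. That probe lay between −6.23 and −5.26 with corn oil and between −5.71 and −4.65 with tricresyl phosphate, a difference of 0.49 ± 0.35 (SE).

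Of the 3 constitutive catalytic subunits, Psmb5 and Psmb6 had groups that did not overlap and Psmb7 had groups that did. Lower groups without overlap made up 7.95% of all genes and 12.6% of the brightest class. The groups of Psmb5 and Psmb6 stayed apart after cyclic loess but overlapped after quantile normalization and after normexp. Psmb5, which carries the chymotrypsin-like activity and is the target of bortezomib, was at 4.64, 4.51 and 4.61 with corn oil and at 4.49, 4.42 and 4.38 with tricresyl phosphate. All 3 treated animals lay below all 3 controls, and the difference was −0.16 ± 0.084 (SE), 0.895-fold, with a 95% interval from −0.36 to 0.045. Psmb6, with the caspase-like activity, was at 2.85, 2.84 and 2.85 with corn oil and at 2.79, 2.60 and 2.66 with tricresyl phosphate. The controls of Psmb6 lay almost on 1 value (SD 0.0076), the treated animals were spread below them (SD 0.10), and the difference was −0.16 ± 0.088 (SE). Psmb7, with the trypsin-like activity, was at 3.04, 2.82 and 3.01 with corn oil and at 2.93, 2.99 and 2.93 with tricresyl phosphate. Here the treated animals lay inside the range of the controls, with a difference of −0.0042 ± 0.095 (SE) and an interval from −0.23 to 0.23. Adjusted limma p-values of Psmb5, Psmb6 and Psmb7 were 0.811, 0.811 and 0.995, and the differences between these genes were not tested.

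The other beta subunits of the constitutive ring shape the barrel without cutting. Psmb3 was at 4.40, 4.60 and 4.57 with corn oil and at 4.48, 4.40 and 4.39 with tricresyl phosphate, and the groups overlapped through corn oil replicate 1. The difference of Psmb3 was −0.10 ± 0.092 (SE), −0.17 without that animal and −0.067 without corn oil replicate 2. Psmb1 was at 3.21, 3.24 and 3.23 with corn oil and at 3.18, 3.13 and 3.21 with tricresyl phosphate, with no overlap but a difference of only −0.053 ± 0.077 (SE). The groups of Psmb1 overlapped after quantile, cyclic loess and normexp normalization. Psmb2 and Psmb4 differed by −0.027 and −0.096, and their groups overlapped. None of these 4 passed, with adjusted limma p-values from 0.837 to 0.959. Psmb10, the inducible subunit that replaces Psmb7 in the immunoproteasome, was at 2.57, 2.69 and 2.59 with corn oil and at 2.66, 2.33 and 2.32 with tricresyl phosphate. Treated replicates 2 and 3 lay below every control while replicate 1 lay among them, and the difference was −0.18 ± 0.12 (SE), adjusted limma p 0.813. Without tricresyl phosphate replicate 1 the difference was −0.29 ± 0.10 (SE), with an unadjusted limma p of 0.0347 and an adjusted p of 0.715, where 6.87% of all genes had an unadjusted p under 0.05.

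In the base of the cap, the ring of 6 ATPases was lower in 5 genes and higher in Psmc3 at the 75th percentile scaling. Psmc5 was at 5.90, 5.72 and 5.76 with corn oil and at 5.68, 5.60 and 5.61 with tricresyl phosphate, so that the groups were apart, and the difference was −0.16 ± 0.089 (SE), adjusted limma p 0.811. Lower groups without overlap made up 7.95% of all genes and 12.6% of the brightest class. The groups of Psmc5 stayed apart after normexp but overlapped after quantile normalization (−0.044) and cyclic loess (−0.065). Psmc2 was at 5.14, 5.03 and 5.02 with corn oil and at 5.06, 4.92 and 4.96 with tricresyl phosphate, with overlap and a difference of −0.080 ± 0.087 (SE) that turned to 0.014 after quantile normalization. Psmc3 was the only ATPase gene with a higher mean after treatment, by 0.060 ± 0.085 (SE), 1.04-fold, with overlapping groups. Psmc1, Psmc4 and Psmc6 differed by −0.030, −0.062 and −0.042. The scaffold gene Psmd1 had the smallest p among the core, cap and activator genes. It was at 5.32, 5.22 and 5.17 with corn oil and at 5.09, 5.03 and 4.99 with tricresyl phosphate, with no overlap. Its difference was −0.20 ± 0.087 (SE), 0.872-fold, with an interval from −0.41 to 0.013, an unadjusted limma p of 0.0614 and an adjusted p of 0.811. A second probe of Psmd1 did not show it, with a difference of 0.034 ± 0.087 (SE). Psmd4, a ubiquitin receptor, was at 3.68, 3.66 and 3.66 with corn oil and at 3.63, 3.55 and 3.58 with tricresyl phosphate, a gap of −0.081 ± 0.077 (SE) with no overlap. The groups of Psmd4 overlapped after quantile, cyclic loess and normexp normalization, and the difference turned to 0.011 after normexp. Psmd2, the other large scaffold, differed by −0.061, with 1 of its 3 probes at 0.115.

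The lid had 7 genes, all with lower means at the 75th percentile scaling and all with overlapping groups. Psmd14, the deubiquitinase that clips the ubiquitin chain from the substrate, was the most variable of them. It was at 0.66, 0.87 and 0.91 with corn oil and at 0.52, 0.56 and 0.99 with tricresyl phosphate. The highest and the lowest animal were both treated, and the difference was −0.12 ± 0.16 (SE), adjusted limma p 0.881. Leaving out single animals moved the Psmd14 difference from −0.27 (without tricresyl phosphate replicate 3) to −0.036 (without tricresyl phosphate replicate 1). Psmd13 was at 1.91, 1.99 and 1.99 with corn oil and at 1.92, 1.82 and 1.96 with tricresyl phosphate, a difference of −0.066 ± 0.085 (SE). Psmd3, Psmd6, Psmd7, Psmd8 and Psmd12, structural subunits of the lid, differed by between −0.075 (Psmd6) and −0.023 (Psmd3), and their adjusted limma p-values lay between 0.883 and 0.959.

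The chaperones that assemble the base, which leave the finished particle, included the member with the smallest p of all 41. Psmd9 was at 4.03, 3.82 and 3.78 with corn oil and at 3.72, 3.60 and 3.59 with tricresyl phosphate. Every treated animal lay below every control, and the difference was −0.24 ± 0.10 (SE), 0.845-fold, with an interval from −0.49 to 0.0082, an unadjusted limma p of 0.0558 and an adjusted p of 0.811. Its 3 probes differed by −0.25, −0.24 and −0.16, and the groups were apart on each of them. The groups of Psmd9 were also apart after quantile normalization (−0.17), cyclic loess (−0.18) and normexp (−0.15). Lower groups without overlap made up 7.95% of all genes and 12.6% of the brightest class. The highest value of Psmd9 came from corn oil replicate 1, the array on its own slide. Without that animal the groups of Psmd9 were apart, as lower groups were in 12.9% of all genes and 15.7% of the brightest class. Psmd10, known as gankyrin, was at 1.65, 1.61 and 1.45 with corn oil and at 1.54, 1.48 and 1.58 with tricresyl phosphate, so the groups overlapped, with a difference of −0.037 ± 0.093 (SE). Psmd5 differed by −0.021 ± 0.076 (SE).

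The 4 activators were lower in all 4 genes at the 75th percentile scaling in 3 of 4 after cyclic loess, and in 2 of 4 after quantile normalization and after normexp. Psme3, which forms the nuclear activator ring by itself, was at 2.96, 2.67 and 2.78 with corn oil and at 2.58, 2.57 and 2.65 with tricresyl phosphate. The groups did not overlap, by a narrow gap, and the difference was −0.20 ± 0.10 (SE), adjusted limma p 0.811. The groups of Psme3 stayed apart after normexp but overlapped after quantile normalization and cyclic loess. Its other probe differed by 0.031 ± 0.12 (SE). Psme2 was at 5.11, 4.90 and 4.80 with corn oil and at 4.82, 4.71 and 4.68 with tricresyl phosphate, a difference of −0.20 ± 0.11 (SE) with slight overlap. Its partner Psme1, with which it forms the interferon-inducible ring, was at 5.29, 5.22 and 5.19 with corn oil and at 5.22, 5.17 and 5.14 with tricresyl phosphate. Psme1 differed by −0.060 ± 0.080 (SE), a sign that turned to 0.033 after quantile normalization. Psme4, the large single-chain activator, differed by −0.042 ± 0.14 (SE), and its 2 highest values came from 1 animal of each group, at 2.39 (corn oil) and 2.38 (tricresyl phosphate). Corn oil replicate 1, the array on its own slide, was the highest animal in all 4 activators. Without it their median difference was −0.073 in place of −0.13, with Psme1 at −0.031, Psme2 at −0.11 and Psme3 at −0.12.

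The animals differed among themselves in a shared way. Each member was set against its own mean in the controls, and the median over the 36 members was 0.042, −0.016 and −0.0013 in the corn oil animals and −0.048, −0.099 and −0.082 in the tricresyl phosphate animals. In the brightest class of genes the same medians were 0.058, −0.013 and −0.041, and −0.020, −0.087 and −0.11. Corn oil replicate 1 held the highest value in 20 of the 36 members, and tricresyl phosphate replicates 2 and 3 held the lowest in 16 and 13. For comparison, corn oil replicate 1 was highest in 8341 of all 31637 genes and in 2895 of the 6328 of the brightest class. Tricresyl phosphate replicates 2 and 3 were lowest in 5492 and 8923 of all genes, and in 1561 and 2424 of the brightest class. The groups did not overlap in 12 of the 36 members, all lower with tricresyl phosphate, against 7.95% of all genes lower and 3.85% higher; in the brightest class these shares were 12.6% and 1.82%. After quantile normalization the count was 3 of 36, namely Psma5, Psma6 and Psmd1, against 7.17% of all genes and 6.38% of the brightest class lower. After cyclic loess it was 6 lower and 1 higher, Psme1, against 6.43% and 5.24% of all genes. After normexp it was 4 lower and 2 higher, Psma7 and Psmc2, against 6.95% and 4.63% of all genes. With the 5 arrays of the shared slide, 29 of 36 members were lower (median −0.072), and the groups were apart in 16, against 12.9% of all genes and 15.7% of the brightest class lower.

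**Figure D2:**
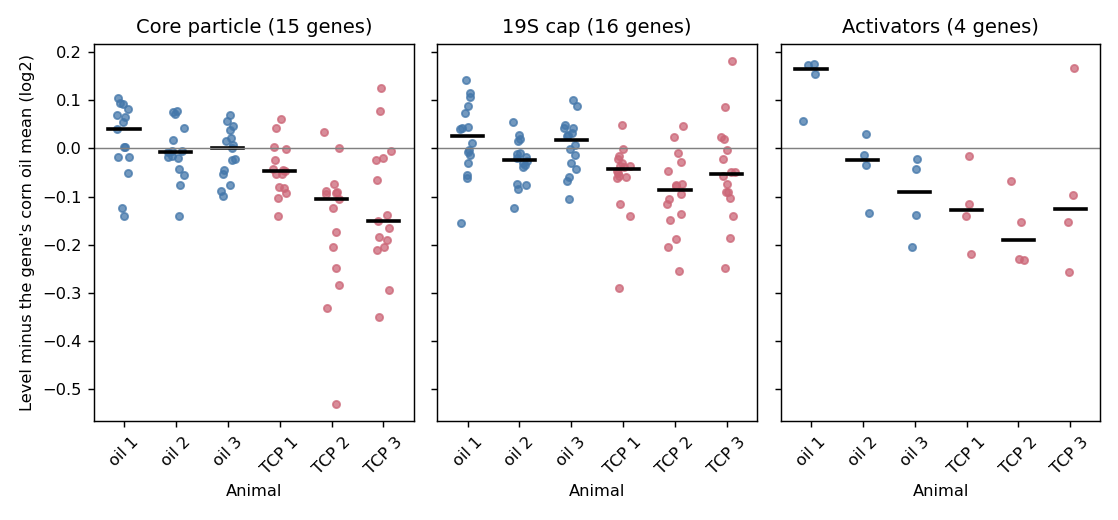
Level of each core, cap and activator gene in each animal minus the mean of that gene in the corn oil animals (log2); points are genes, black bars are medians, oil marks corn oil and TCP marks tricresyl phosphate, and Psma8 is left out. The medians of the core particle range from 0.040 (corn oil replicate 1) down to −0.15 (tricresyl phosphate replicate 3), while single genes of the animals overlap.

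Within a gene, the brighter probe mostly gave the lower difference. In 21 members with several usable probes, the brightest probe gave a lower difference than the dimmest in 20, with medians of −0.066 and −0.0087. Psmc6 was the exception, at −0.042 on its brightest and −0.17 on its dimmest probe. Among all named genes with several usable probes the brightest lay below the dimmest in 67.5%, and in 79.5% of those in the brightest class. The brightest and the dimmest probe had opposite signs in 10 of the 21 members. The same held for 2397 of 6504 named genes with several usable probes, and for 880 of 2269 of those in the brightest class. Psmd2, for example, differed by −0.061 on its brightest and 0.115 on its dimmest probe. Psma4 kept its sign, at −0.15 and −0.016. With the mean over all usable probes of a gene in place of the brightest, 29 of 36 members were lower, with a median of −0.051. The part of probe brightness in the differences between the groups was not tested.

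**Figure D3:**
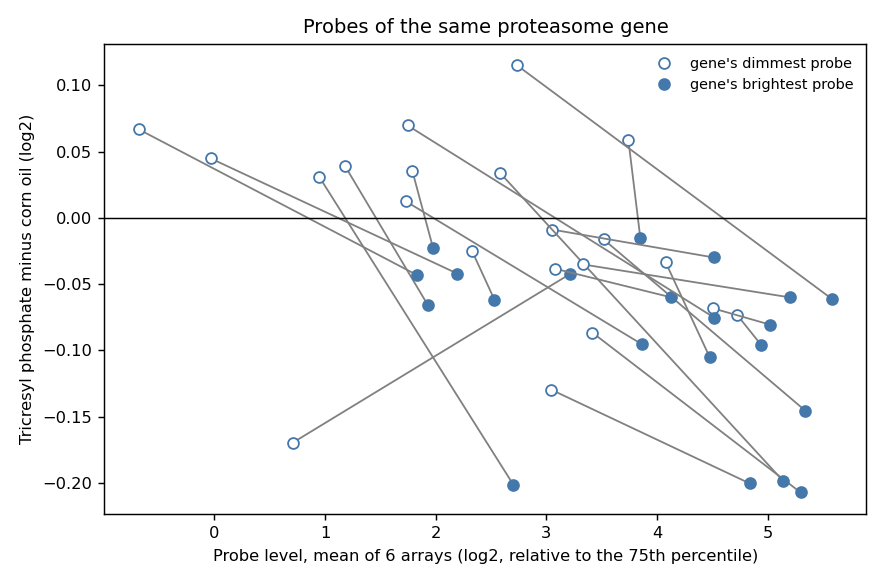
Difference between the groups (tricresyl phosphate minus corn oil, log2) against the mean level of the probe over 6 arrays, for the dimmest (open) and the brightest (filled) usable probe of 21 members; lines join probes of the same gene. Lines fall to the right for 20 of the 21 genes.

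By particle, the median difference was −0.10 over the 16 core genes, −0.061 over the 16 cap genes and −0.13 over the 4 activators. After quantile normalization these were −0.016, 0.0085 and −0.051, so the cap turned sign, as it did after cyclic loess (0.0026) and normexp (0.013). For scale, 79 genes of cytosolic ribosomal proteins had a median of −0.14, with 76 lower, and 66 genes of the respiratory chain a median of −0.13, with 61 lower. No difference between these groups of genes was tested.

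**Figure D4:**
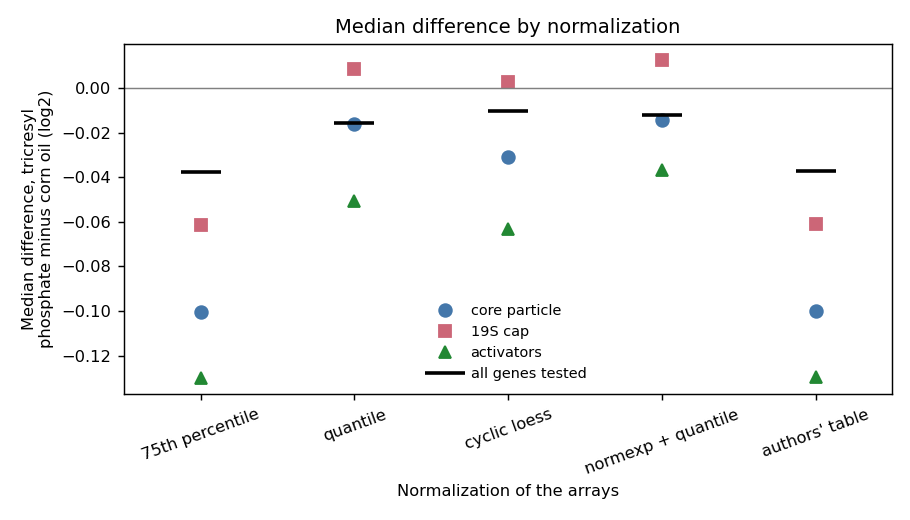
Median difference (tricresyl phosphate minus corn oil, log2) over the core, cap and activator genes (coloured symbols) and over all genes tested (black bars), under 5 normalizations of the arrays. At the 75th percentile scaling and in the authors' value table the 3 groups of genes lie below all genes, and after quantile, cyclic loess and normexp normalization they lie closer to 0, with the cap above it.

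Promoters are shown for the catalytic genes with separated groups, Psmb5 and Psmb6, and for Psmd1 and Psmd9, the genes with the smallest p in the cap and among the chaperones. Each run gives 250 bases before and 50 bases after the start of the gene in RefSeq on build GRCr8, 5′ to 3′ on the strand of the gene. Psmb5 lies at chr15:32047330-32047629 (minus strand), Psmb6 at chr10:55737638-55737937 (plus), Psmd1 at chr9:94157721-94158020 (plus) and Psmd9 at chr12:39018215-39018514 (minus). Capitals mark the core of the antioxidant response element, TGACNNNGC on either strand, to which NRF1 and NRF2 are known to bind. Every promoter shown holds this motif, but the promoters were not picked by a single rule. The core gene and the activator with the smallest p, Psma6 and Psme3, are not shown, and their promoters hold no match. The promoters shown therefore do not stand for the lower genes as a set.
Psmb5: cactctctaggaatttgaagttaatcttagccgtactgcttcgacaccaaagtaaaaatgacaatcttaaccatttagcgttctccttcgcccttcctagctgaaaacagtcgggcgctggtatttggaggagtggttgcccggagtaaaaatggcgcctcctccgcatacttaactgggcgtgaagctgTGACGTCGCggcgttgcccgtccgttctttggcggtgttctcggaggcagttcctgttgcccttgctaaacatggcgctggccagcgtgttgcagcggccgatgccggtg
Psmb6: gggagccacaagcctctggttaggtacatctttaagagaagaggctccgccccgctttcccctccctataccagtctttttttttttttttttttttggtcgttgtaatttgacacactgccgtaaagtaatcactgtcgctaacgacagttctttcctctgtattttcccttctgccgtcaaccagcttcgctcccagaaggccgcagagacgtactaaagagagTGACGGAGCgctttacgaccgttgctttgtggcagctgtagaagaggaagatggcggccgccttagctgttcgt
Psmd1: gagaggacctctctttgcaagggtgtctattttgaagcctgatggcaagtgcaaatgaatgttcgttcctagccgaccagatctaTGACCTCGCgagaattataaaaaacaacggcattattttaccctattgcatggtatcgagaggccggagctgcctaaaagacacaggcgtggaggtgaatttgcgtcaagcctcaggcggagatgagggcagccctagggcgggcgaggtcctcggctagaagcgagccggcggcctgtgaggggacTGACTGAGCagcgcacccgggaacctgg
Psmd9: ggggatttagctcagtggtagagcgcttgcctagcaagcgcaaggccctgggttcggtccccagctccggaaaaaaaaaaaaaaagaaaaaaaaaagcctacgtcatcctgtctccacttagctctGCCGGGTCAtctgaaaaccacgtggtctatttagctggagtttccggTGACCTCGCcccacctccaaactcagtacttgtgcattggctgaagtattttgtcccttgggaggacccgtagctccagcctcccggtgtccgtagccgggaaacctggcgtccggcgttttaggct

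This motif was found in 7 of 32 promoters of core, cap and activator genes that the table holds, or 21.9%, and in 12.1% of 33469 promoters of the same length. The 7 genes were Psma3, Psmb2, Psmb5, Psmb6, Psmd1, Psmd3 and Psme4, and Psmd9 held 2 matches. In Psmb5 and Psmb6 the match began 60 and 24 bases before the start site. The 7 genes with a match differed by −0.20 to −0.023 between the groups, with a median of −0.095, and the 25 without one differed by −0.23 to 0.49, with a median of −0.066. The difference between these sets was not tested. A match is a description of the letters, and which factor binds there was not measured.

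Genes that control or accompany the proteasome did not pass either. Beside the counts of lower genes given here, 59.2% of all genes and 76% of the brightest class were lower. Nfe2l1, which encodes NRF1, was at 0.95, 0.82 and 0.84 with corn oil and at 0.81, 0.73 and 0.59 with tricresyl phosphate, a difference of −0.16 ± 0.097 (SE) with groups narrowly apart and an adjusted limma p of 0.811. Without tricresyl phosphate replicate 3 it was −0.097. Of the 9 measured genes of NRF1 control and its p97 partners 6 were lower and 3 higher, with a median of −0.013. Among them Ufd1, a p97 cofactor, differed by −0.15 ± 0.079 (SE), and Mafg, a partner of NRF factors on DNA, by 0.17 ± 0.090 (SE), with every treated animal above every control. Of 5 measured assembly and inhibitor genes 3 were lower. Pomp, which matures the core particle, differed by −0.17 ± 0.14 (SE), which leaving out tricresyl phosphate replicate 1 or 3 moved to −0.30 or −0.058, and Psmg2, a chaperone of the alpha ring, by 0.070 ± 0.084 (SE). Of 10 proteasome-bound receptors and deubiquitinases 7 were lower. The shuttle gene Ubqln1 differed by −0.23 ± 0.094 (SE), with an unadjusted limma p just under the threshold and an adjusted p of 0.811, and Sem1, a small subunit of the cap outside the naming rule, by −0.19 ± 0.11 (SE). Of 8 genes of ubiquitin and its activation 7 were lower, among them the ubiquitin-ribosomal fusion gene Rps27a (−0.19). The brightest class held 7 of these 8 genes. None of these genes passed, 0 of 31637 being the count over all genes.

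The interferon-inducible catalytic subunits left out of the naming rule, Psmb8 and Psmb9, did not pass either. Psmb9 was at 1.33, 1.33 and 1.12 with corn oil and at 1.05, 0.96 and 1.11 with tricresyl phosphate, a difference of −0.22 ± 0.099 (SE) with groups narrowly apart. Psmb8 was at 0.59, 0.94 and 0.72 with corn oil and at 0.36, 0.57 and 0.68 with tricresyl phosphate, with overlap and a difference of −0.21 ± 0.13 (SE). Without corn oil replicate 2 the Psmb8 difference was −0.12, and without tricresyl phosphate replicate 1 it was −0.13. Both Psmb8 and Psmb9 had an adjusted limma p of 0.811. Of 6 measured genes of the immunoproteasome and antigen processing 4 were lower, B2m, the light chain of class I molecules, among them (−0.17). Of 16 interferon response genes 13 were lower, where 59.2% of all genes and 76% of the brightest class were. Mx2 (−0.26) and Usp18 (−0.59) were among the 13, and corn oil replicate 2 was highest in 12 of the 16. The Usp18 difference was −0.28 without corn oil replicate 2 and −0.90 without corn oil replicate 3. Psmb10 and Psmb8 also had their highest value in corn oil replicate 2, as did B2m and Psmb9 by very small margins. For B2m it was 7.541, against 7.536 in corn oil replicate 1. Psme1 and Psme2 had theirs in corn oil replicate 1. That animal was highest in 20 of the 36 core, cap and activator genes and in 2895 of the 6328 genes of the brightest class.

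Markers of other cells varied between the animals. Of 12 leukocyte markers 7 were lower with tricresyl phosphate, and their mean level ranged from −1.12 to −0.84 with corn oil and from −1.21 to −0.84 with tricresyl phosphate. Of 6 measured blood cell markers 5 were lower, with a mean level from 0.15 to 0.23 with corn oil and from −0.22 to 0.17 with tricresyl phosphate, lowest in replicates 2 and 3, and 3 of the 6 had an unadjusted limma p under 0.05, against 5.49% of all genes. Of 10 hepatocyte markers 4 were lower, and their mean level ranged from −3.57 to −0.58 with corn oil and from −2.28 to −0.94 with tricresyl phosphate. Of 9 proximal tubule markers 7 were lower, with a median difference of −0.10. All 9 were in the brightest class, whose median was −0.072. Of 6 collecting duct markers 4 were higher, with a median of 0.15, while Aqp2 (−0.043) and Foxi1 (−0.18) were lower. In Aqp3 and Atp6v1b1 every treated animal lay above every control, as in 3.85% of all genes and 1.82% of the brightest class. The part of these cells in the proteasome values was not tested.

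The remaining 2 matching symbols encode no subunit. Psmc3ip, a cofactor of meiotic recombination, differed by −0.028 ± 0.097 (SE), and Psme3ip1, whose product binds the Psme3 activator, by 0.091 ± 0.14 (SE). Whether a probe could also bind a processed copy of its gene was not checked.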

How the data were processed

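RNA of 6 rat renal cortices was measured on 1-colour arrays. Per the file headers, the deposited processed signal is a linear intensity from Agilent Feature Extraction 10.7.1.1 (10.7 per the submitters' processing notes), background-subtracted within the array, on a design annotated on rn4. The authors' value table holds the same intensity divided by 1 number per array. Control spots were left out and 77 outlier spots set missing. Probes were named by unversioned accession through RefSeq (GRCr8), with 28206 matching 1 symbol, 0 several and 33331 none. Values were log2 signals minus the 75th percentile of the array. A probe was kept if well above background on at least 3 of 6 arrays, and the brightest kept probe stood for a gene. Targets with no symbol were kept as entries of their own and counted among the 31637 genes. The groups were compared with limma 3.58.1 in R 4.3.3 (lmFit, eBayes, two-sided, Benjamini-Hochberg over 31637 genes), tested on simulated data. The number of arrays limits the precision. Every member is named; animal values are given for the catalytic and inducible members and the 2 with the smallest p per role, and of each list of related genes (marker lists apart) the 2 genes with the smallest p are named, with Nfe2l1, Pomp, Psmb8 and Psmb9; 1 gene this rule names is not reported here. Members and lists were chosen with earlier results of these data known. Normexp (offset 50) was run on the median spot signal; the mean spot signal was not used here. Alternatives covered the normalization, filter, choice of probe, variance model, slide, replicate block and single animals left out.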

Additional observations from a re-analysis of the deposited data

How the results depend on the processing

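Over 18 alternatives no named gene passed an adjusted p under 0.05, and 7 of 33 changed sign under at least 1. After quantile normalization the median difference was −0.016 over the core and 0.0085 over the cap, with 7 cap and 2 activator genes lower, and the values that turned were Psmb1 (0.00029), Psmb7 (0.043), Psmc2 (0.014) and Psme1 (0.033). After cyclic loess the cap median was 0.0026 with 7 genes lower, and Psmb7 (0.043), Psmc2 (0.0048) and Psme1 (0.029) turned. After normexp the medians were −0.015 (core) and 0.013 (cap), with 9 core, 7 cap and 2 activator genes lower, and Psmb3 (0.0022), Psmb7 (0.019), Psmc2 (0.040), Psmd4 (0.011) and Psme1 (0.020) turned; 2 genes of the whole array passed, as with the trend and robust variance model (2), under which Psma6 and Psmd1 had an unadjusted limma p under 0.05, against 5.65% of all genes. With the slide as a block, which equals leaving out corn oil replicate 1, Psmb7 (0.037) and Psmd10 (0.0030) turned. Psmb7 also turned without corn oil replicate 3 (0.024) and without tricresyl phosphate replicates 1 (0.0054) and 3 (0.0056), and ranged from −0.074 to 0.037 as single animals were left out. Leaving out 1 animal gave medians from −0.13 to −0.079 (core), from −0.077 to −0.042 (cap) and from −0.18 to −0.073 (activators), with 12 to 14, 14 to 15 and 3 to 4 genes lower. Over all genes it gave 0 to 1 at the adjusted threshold and 1412 to 2174 at the unadjusted one. No pairing of the animals by replicate number was seen. Same-numbered animals had correlations of deviations of 0.086, −0.051 and −0.044, and the other pairs lay between −0.078 and 0.12. With 3 animals a group this check cannot exclude a pairing. With the replicate number as a block 0 genes passed, 1927 had an unadjusted limma p under 0.05, and the medians were −0.10, −0.061 and −0.13. The cause of these changes was not tested. Brightness over background limits Psma8 alone among the members: it was not well above background on 2 of 6 arrays.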
